A study of Mus musculus with 4 samples.

Results

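The lung cells of the library labelled NB were compared with those of the library labelled 2 M, cell type by cell type. Single cells of whole lung of male, wild-type C57BL/6 mice had been profiled with the 10x Genomics droplet platform at 4 labelled ages: NB (10 days), 2 M (2 months), 10 M and 18 M, with 1 library per age. All 4 samples were digested with collagenase D and DNase1 and depleted of dead cells, none of the groups carries a genetic change or a treatment, and the number of mice behind a library is not given in the sources used here. A cell was kept when it had 201 to 4999 genes, at most 25000 unique molecular identifiers (UMIs, counted RNA molecules) and under 8% mitochondrial UMIs. Of the 13649 barcodes in the NB and 2 M libraries, 11914 passed, 6377 in NB and 5537 in 2 M, out of 28153 cells kept in the whole series. Clusters were assigned to 9 broad cell types led by Cd3e, Cd79a, Ncr1, Csf3r, Plet1, Csf1r, Dcn, Cdh5 and Lamp3, and 11503 of the 11914 cells fell into them, 6087 from NB and 5416 from 2 M. With 1 library on each side no test between ages was possible, and all values are descriptions of these libraries.

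The mouse lung goes on forming alveoli after birth, and in that period its fibroblasts deposit the elastin and collagen of the new septa. T and B cells of a young animal are mainly naive or recently produced, and memory T cells with granzymes and chemokines, memory-type B cells and plasma cells gather later in life and with exposure to antigens. Alveolar macrophages clear surfactant made by alveolar type II cells, and MHC class II proteins, which present peptides to CD4 T cells, are carried mainly by B cells, dendritic cells and macrophages.

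The label of the NB library was set against genes that mark a young animal. H19 and Dlk1, imprinted RNAs of fetal and early postnatal growth, had 0 and 1 UMIs in NB and 974 and 253 UMIs in the 18 M library, with 2 and 8 in 2 M and 2 and 7 in 10 M. The 19 growth genes in the tables, of a list of 20, summed to 99.2 counts per 1000000 UMIs (CPM) in NB, the lowest sum of the 4 libraries. The sums of 2 M, 10 M and 18 M were 145, 188 and 474 CPM. Rag1 and Igll1, genes of lymphocyte precursors, had 0 UMIs each in NB and 609 and 170 in 18 M, whereas Jchain, a plasma cell gene, was at 1804 CPM in NB and at 0.312, 44.9 and 7.93 CPM in 2 M, 10 M and 18 M. Xist, which is transcribed from the inactive X chromosome of female cells, was at 578 CPM in 18 M and at 0.176 to 0.526 CPM in the other 3 libraries. The 4 Y-linked genes in the tables summed to 204 CPM in 18 M and to 340 to 396 CPM in the others, so all 4 libraries held RNA of male cells. The precursor genes together were at 860 CPM in NB, and at 1082, 950 and 1064 CPM in 2 M, 10 M and 18 M. Some list members were higher in NB than in 2 M, among them Plagl1 (16.4 and 9.05 CPM) and Cd93 (24.5 and 21.7 CPM). The cell cycle gene Mki67 was at 10.6 CPM in NB, 4.92 and 4.61 CPM in 2 M and 10 M, and 45.9 CPM in 18 M. The summed growth genes, Rag1, Igll1 and Jchain go against the labels NB and 18 M. NB and 2 M are therefore used below as the names of the libraries as labelled. A difference between the libraries NB and 2 M cannot be read as a difference between newborn and adult mice. Median UMIs per cell were 4187 in NB and 4180 in 2 M, and 16 cell barcodes occurred in both libraries.

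**Figure D1:**
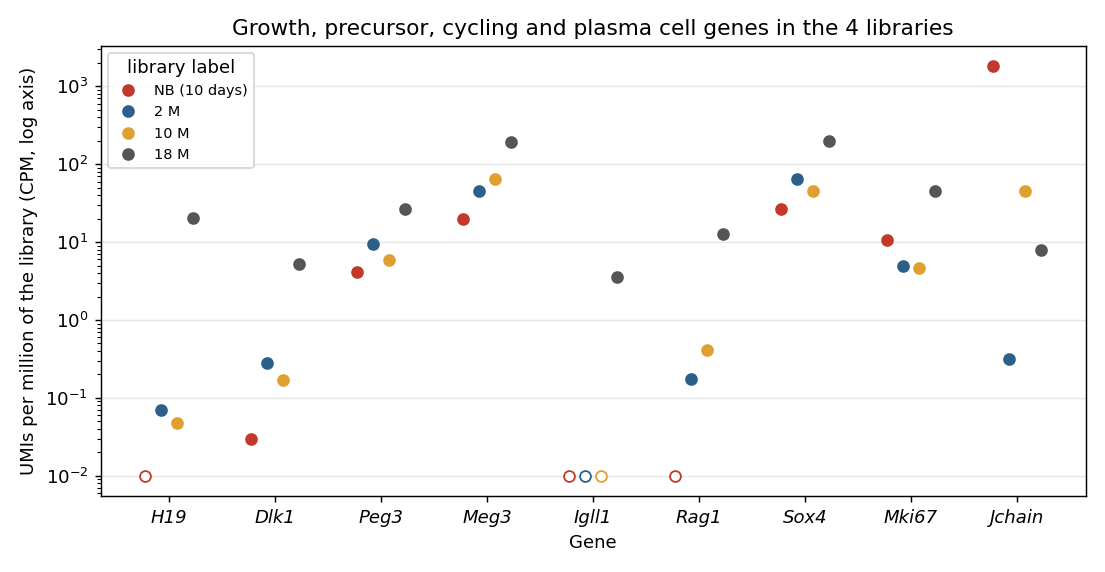
Level (CPM, log axis) of growth, lymphocyte precursor, cycling and plasma cell genes over all cells kept in each of the 4 libraries, which are named by their labels; open circles mark 0 UMIs and are drawn at the bottom of the axis. H19, Dlk1 and Rag1 were at their highest in 18 M and at or near 0 in NB, and Jchain was highest in NB. Mki67 was highest in 18 M and higher in NB than in 2 M and 10 M.

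The lead marker of each type was far above its level in the other types in both libraries. The clusters were named with these markers, so this contrast follows from the typing rule and is no separate check. Cd3e was at 263 CPM in T cells and 3.83 CPM in the other cells of NB, and Dcn, the fibroblast proteoglycan decorin, at 4668 and 1.56 CPM. Csf1r was the weakest of the 9 lead markers, at 137 CPM in its class and 11.7 CPM elsewhere. That class is 1 cluster of 195 cells in which dendritic cell markers scored above those of monocytes, and it is called mononuclear phagocytes, a mixture of monocytes, interstitial macrophages and dendritic cells.

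Neutrophils and mononuclear phagocytes took larger shares of the cells labelled NB, and NK and B cells smaller ones. Neutrophils made up 9.46% (8.75 to 10.2%) of NB cells (603 cells) and 4.42% (3.90 to 5.0%) of 2 M cells (245 cells), a ratio of 2.14 (1.84 to 2.49). Ranges in parentheses are 95% intervals for counting error only, exact Clopper-Pearson for shares, exact Poisson for CPM and exact conditional binomial for ratios, and none of them covers the spread between mice or between cells. Mononuclear phagocytes made up 2.37% (2.01 to 2.77%) of NB (151 cells) and 0.795% (0.578 to 1.07%) of 2 M (44 cells), a ratio of 2.98 (2.12 to 4.27). NK cells showed the reverse order, with 2.48% (2.11 to 2.89%) of NB (158 cells) and 8.92% (8.18 to 9.70%) of 2 M (494 cells), which is 3.60 (3.0 to 4.34) times the NB share. B cells were the largest class of both libraries, at 39.1% (37.9 to 40.3%) of NB (2494 cells) and 49.6% (48.2 to 50.9%) of 2 M (2745 cells). T cells came next, at 35.1% (33.9 to 36.3%) of NB (2239 cells) and 28.7% (27.5 to 29.9%) of 2 M (1590 cells). The tissue cells were few in both libraries after this digestion. Fibroblasts numbered 148 in NB and 94 in 2 M, a share ratio of 1.37 (1.05 to 1.79), and alveolar macrophages 182 and 121, a share ratio of 1.31 (1.03 to 1.66), which was 0.895 when cells were typed one by one by a single lead marker. Endothelial cells numbered 64 and 38, and alveolar type II cells 48 and 45, and the intervals of both share ratios (1.46 (0.964 to 2.25) and 0.926 (0.604 to 1.42)) hold 1. A share depends on every other share and on the digestion, so a larger share does not show more cells of that type in the lung.

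**Figure D2:**
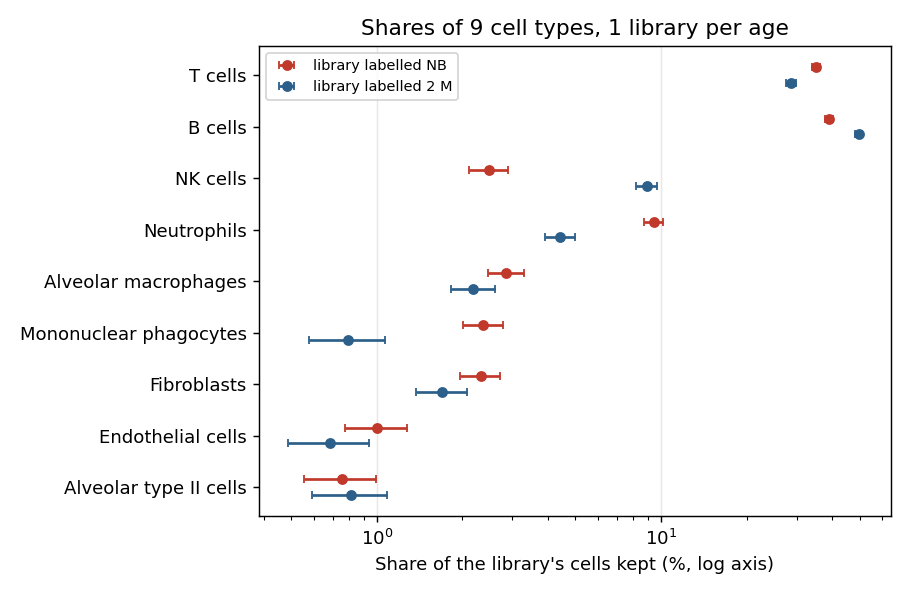
Share of the cells kept (percent, log axis) in each of the 9 cell types for the libraries labelled NB and 2 M, with exact 95% intervals that cover counting error only. The NK share was lower in NB and the neutrophil and mononuclear phagocyte shares were higher, with intervals that do not meet, whereas those of endothelial and alveolar type II cells overlap.

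For each type the UMIs of its cells were summed per library and given as CPM of that sum. A gene entered the comparison when it had at least 50 UMIs in both libraries together, and it was counted as higher or lower in NB when its ratio passed 2-fold after 0.5 UMIs were added to each sum. In T cells 5.28% of 9871 genes were at least 2-fold higher in NB and 1.87% at least 2-fold lower, and the median log2 ratio of all of them was 0.01.

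T cells labelled NB carried more RNA of effector and memory genes and less of naive genes. Of the 25 effector and memory genes 22 were at least 2-fold higher in NB, none was 2-fold lower, and their median log2 ratio was 2.17. Gzmk (chr13:113171608-113225908 in mm10), a granzyme of memory CD8 T cells, stood at 77.4 CPM in NB (991 UMIs) and 1.57 CPM in 2 M (16 UMIs), 49.2-fold (30.2 to 86.4) higher in NB. Ccl5, a chemokine of memory and cytotoxic T cells, stood at 4760.1 CPM in NB (60981 UMIs) and 701 CPM in 2 M (7131 UMIs), 6.79-fold (6.63 to 6.96) higher. Ifng, the type 1 cytokine interferon gamma, was at 108 against 7.86 CPM in NB and 2 M, 13.8-fold (11.0 to 17.5), and the transcription factors of effector cells Tbx21 and Eomes were 8.57-fold and 8.31-fold higher. Ccl4 was 9.78-fold higher, S100a6 6.64-fold, Cxcr3, the receptor that guides T cells to inflamed tissue, 4.92-fold, and Cd44, a marker of antigen-experienced cells, 2.31-fold. The shares of cells with a UMI followed the sums. After thinning to 1000 UMIs per cell, Ccl5 was seen in 42.9% of NB and 10.0% of 2 M T cells (50.6% and 20.4% unthinned), and in 4.26% and 1.80% of B cells, which are not known for it. Cells with fewer UMIs than the thinned number were left out of these shares, leaving 2224 of 2239 NB and 1587 of 1590 2 M T cells and 2466 of 2494 and 2725 of 2745 B cells. The median T cell had 5127 UMIs in NB and 6190.5 in 2 M, and the median B cell 3651.5 and 3633. The 6 NK cell markers, of which Gzma and Eomes are also made by T cells, summed to 274 CPM in NB and 53.7 CPM in 2 M T cells, none of them at 0, and the 7 markers of group 2 innate lymphoid cells to 571 and 294 CPM. Their part in these results was not tested.

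Of the 15 naive genes none was 2-fold higher and 4 were 2-fold lower in NB, with a median log2 ratio of -0.71. Ccr7 (chr11:99144196-99155077), the receptor that brings naive cells into lymph nodes, stood at 323 CPM in NB (4137 UMIs) and 758 CPM in 2 M (7719 UMIs), 2.35-fold (2.26 to 2.44) lower in NB. Lef1, a transcription factor of naive cells, was at 252 against 566 CPM, 2.25-fold (2.15 to 2.35) lower, S1pr1, the lymph node exit receptor, 2.09-fold lower, and Igfbp4 2.07-fold lower. Ccr7 was seen in 19.9% of thinned NB and 47.1% of thinned 2 M T cells (43.0% and 81.5% unthinned). Tcf7 and Il7r, further genes of naive cells, stayed within 2-fold, at 141 against 169 CPM and 223 against 166 CPM in NB and 2 M, Il7r being the member that was higher in NB. Of 7 lymphocyte precursor genes none was 2-fold higher and 2 were 2-fold lower in NB (median -0.65), with 3 log2 ratios above 0 and 4 below. The 2 lower ones were Sox4 and Cd24a, which mark precursors and recent thymic emigrants. They were 5.14-fold (4.36 to 6.09) and 2.76-fold (2.28 to 3.34) lower.

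Checkpoint genes, receptors that hold back activated T cells, were higher in NB for 6 of 12 members and 2-fold lower for none, with a median log2 ratio of 1.0. Lag3 (chr6:124904361-124911705), an inhibitory receptor that binds MHC class II, had 158 UMIs in 97 NB cells and 2 UMIs in 2 cells of 2 M, a ratio of 62.8 (17.1 to 523). Pdcd1, the receptor PD-1, was at 28.0 against 5.70 CPM, 4.92-fold (3.72 to 6.61) higher in NB, Ctla4 2.31-fold higher and Tigit 2.10-fold higher. Foxp3, the master regulator of regulatory T cells, was at 9.68 against 4.42 CPM, 2.19-fold (1.55 to 3.15) higher, and 4 of 11 regulatory genes were 2-fold higher and 1 was lower. Tnfrsf4 (OX40) was 4.31-fold higher, and the lower member was Ikzf4, 3.35-fold lower in NB. Of 8 genes of gamma-delta and type 17 T cells 4 were higher and none lower, among them Maf at 266 against 51.8 CPM and the cytokine Il17a at 68.5 against 21.1 CPM, whose UMIs lay in 89 NB and 24 2 M cells. Il10, an inhibitory cytokine, had 168 UMIs in 44 NB cells and 2 in 2 cells of 2 M. Among the other genes with the highest ratios, Sostdc1 had 246 UMIs in 44 NB cells, with 41.9% of them in 5 cells, and Esm1 had 122 UMIs in 68 NB cells, each against 1 UMI in 2 M.

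T cells of the 2 libraries lay mostly in different clusters. The clusters led by Gzmk, Ccl5 and Klrc1 and by Tnfsf8, Il17a and Tnfrsf4 held 886 and 784 NB cells and 125 and 118 2 M cells. Those led by Trib2, Dusp10 and Lef1 and by Cd8b1 and Lef1 held 249 and 320 NB cells and 759 and 588 2 M cells. The clusters were drawn with these same genes, so their sizes are a description. Within the 4 clusters taken one at a time, a comparison chosen after seeing the data, the median log2 ratio of the effector and memory list was 0.50, 0.23, 0.07 and 0.00 in the order just named, against 2.17 over all T cells. The naive list kept medians of -0.44, -0.43, -0.18 and -0.19. In the cluster led by Gzmk, Gzmk itself was at 169 CPM in NB (930 UMIs) and 17.6 CPM in 2 M (16 UMIs), 9.56-fold (5.86 to 16.8) higher in NB, and Ccl5 was 1.53-fold higher. In the cluster led by Tnfsf8 and Il17a other lists had the opposite direction to that over all T cells. There 3 of 8 gamma-delta and type 17 genes were 2-fold lower and none higher (median -0.54), and 4 of 11 regulatory genes were lower and 1 higher (median -0.76).

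B cells labelled NB differed in fewer genes, with 2.26% of 9719 genes at least 2-fold higher and 1.31% at least 2-fold lower. Age-associated and memory B cell genes were 2-fold higher for 8 of 18 members and lower for none, with a median log2 ratio of 0.89 beside -0.06 for all genes. With all 4 libraries clustered together the class held 2218 NB cells, the median was 0.26 over 14 genes, and all B cell genes 2-fold higher in NB numbered 90 in place of 220. Cxcr3 (chrX:101731535-101734269) had 64 UMIs in 48 NB B cells and 0 in 2 M, at least 21.9-fold higher when the 2 M sum is set to a floor of 3 UMIs. Cd80, a ligand that costimulates T cells, and Nt5e, the ectoenzyme CD73, both carried by memory B cells, were at 7.83 against 0.774 CPM and 34.2 against 3.48 CPM, 10.1-fold (4.89 to 24.2) and 9.82-fold (6.95 to 14.3) higher in NB. Zbtb32, a repressor found in memory B cells, was 5.96-fold (3.48 to 10.8) higher and Apoe 2.54-fold (2.39 to 2.71) higher, at 346 against 136 CPM. Nt5e was seen in 1.99% of NB and 0.257% of 2 M B cells, and Apoe in 14.8% and 10.1% (unthinned 7.26% and 1.06%, and 28.2% and 23.6%).

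Some genes of B cell precursors and of newly formed B cells were lower. Of 7 precursor genes 3 were 2-fold lower in NB and 1 was higher, with a median log2 ratio of -0.81. Cd93 (chr2:148436640-148443563), a receptor of immature B cells, stood at 6.74 CPM in NB (68 UMIs) and 27.9 CPM in 2 M (288 UMIs), 4.13-fold (3.16 to 5.47) lower in NB. Myb and Sox4, transcription factors of precursors, were at 2.98 against 13.3 CPM and 19.7 against 64.7 CPM, and the higher member was Spn (CD43), 2.41-fold (1.79 to 3.26). Fcer2a, the low-affinity IgE receptor of follicular B cells, was the 1 member of 13 follicular genes past 2-fold, at 66.4 against 160.5 CPM, 2.42-fold (2.21 to 2.65) lower in NB. Among the lowest ratios of all genes, Mid1 was 7.19-fold (5.18 to 10.2) and Lef1 4.02-fold (3.08 to 5.29) lower.

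Jchain RNA was higher in NB in every type. Jchain (chr5:88519809-88527891), which joins secreted antibody chains, was at 72.4 CPM in NB (730 UMIs) and 0.871 CPM in 2 M (9 UMIs) in B cells, and at 26.1 CPM in T cells, 32.1 CPM in NK cells and 42.6 CPM in neutrophils of NB, each with 0 UMIs in 2 M. The highest level outside plasma cells was 1598 CPM, in NB fibroblasts. T cells and neutrophils are not known to make it, and 64 plasma cells were present in NB and none in 2 M. Within the clusters with at least 100 B cells of each library the age-associated and memory list had medians of 0.06, 0.03 and 0.53, and the cluster led by AC168977.1, Ccr6 and Mzb1 held 355 NB cells and 14 2 M cells. The precursor list had medians of -0.08, -0.58 and -1.30 in the same 3 clusters, led by Ebf1, by Cxcr5 and by Fcer2a.

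**Figure D3:**
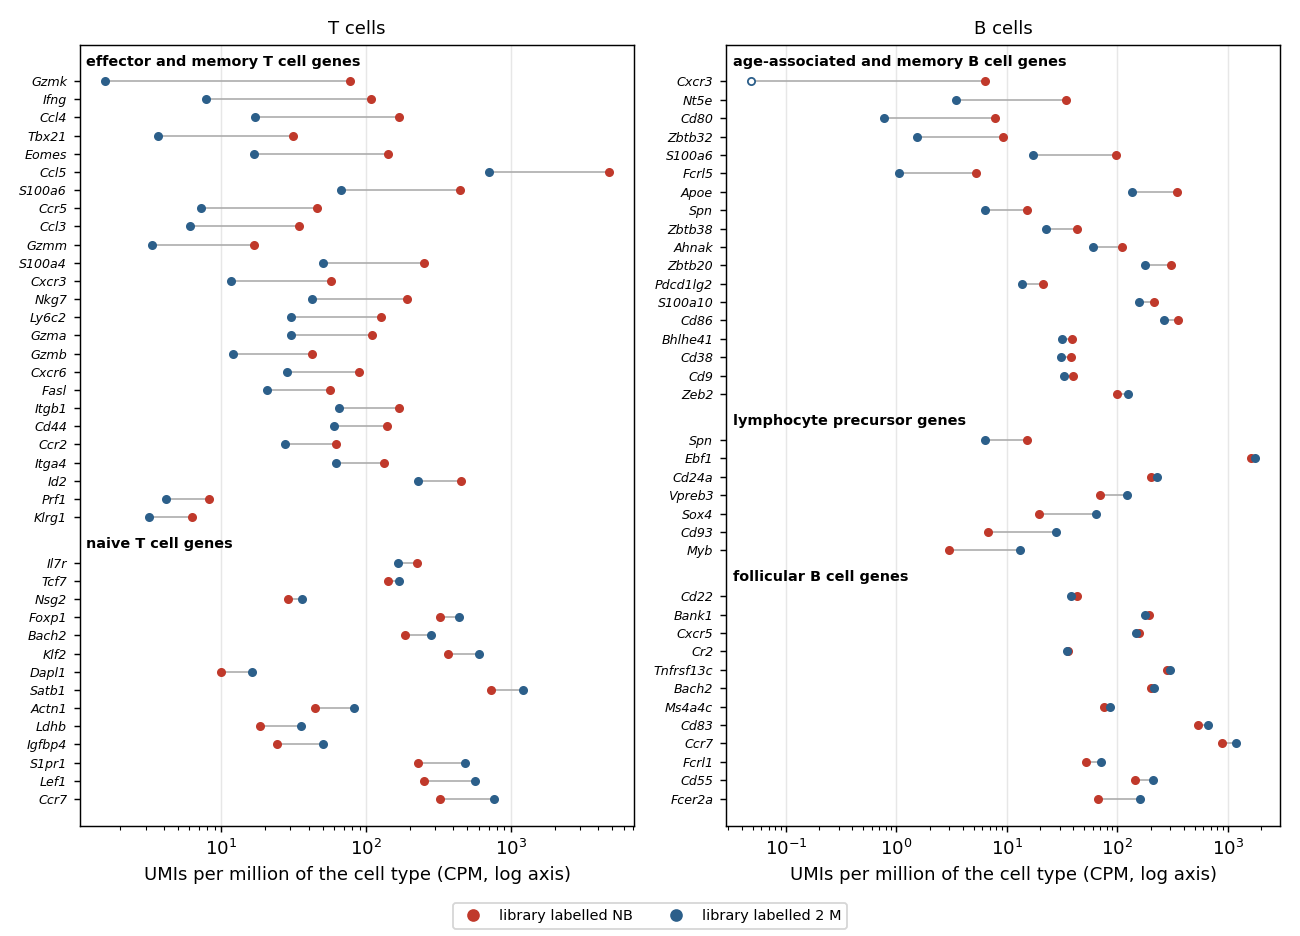
Levels (CPM, log axis) of effector, memory and naive genes in T cells and of memory, precursor and follicular genes in B cells of the libraries labelled NB and 2 M, 1 point per named gene and library, joined by a line; an open circle marks 0 UMIs and is drawn at the value of 0.5 UMIs. Gzmk, Ccl5 and Ifng lay above their 2 M levels in NB T cells and Ccr7 and Lef1 below, and in B cells Cxcr3 had no UMI in 2 M.

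NK cells were the type with the smallest share of genes past 2-fold upward, 0.785% of 6246 genes, with 2.02% lower. None of 14 mature NK genes passed 2-fold in either direction (median log2 ratio 0.40 beside -0.03 for all genes), and the killing genes Gzma and Gzmb stood at 6927 against 4407 CPM and 627 against 445 CPM. Ncr1, the activating receptor NKp46, was at 85.0 against 66.7 CPM, with an interval of the ratio (1.28-fold (0.932 to 1.73)) that holds 1. Of 17 killer cell lectin-like receptor genes 2 were higher in NB: Klrg1, a receptor of the most mature NK cells, at 116 CPM in NB (83 UMIs) and 45.6 CPM in 2 M (104 UMIs), 2.54-fold (1.88 to 3.42), and Klrb1f, 2.59-fold (1.56 to 4.28). Klrg1 was seen in 12.0% of thinned NB and 2.86% of thinned 2 M NK cells (33.5% and 14.2% unthinned, with median depths of 4190.5 and 4311.5 UMIs), and in 0.0406% and 0% of B cells. Thinning kept all 158 NB and 489 of 494 2 M NK cells. Of 11 immature NK genes Kit was higher (57.2 against 20.6 CPM) and Thy1 lower (13.9 against 30.7 CPM) in NB. Cd27, which mature NK cells lose, was at 50.2 against 91.7 CPM, 1.83-fold (1.28 to 2.68) lower and so within 2-fold. The lowest ratio among the genes ranked was that of Ret, a receptor tyrosine kinase, with 1 UMI in NB and 77 UMIs in 44 cells of 2 M, a ratio of 0.0413 (0.00103 to 0.237).

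Neutrophils had 1.53% of 3928 genes at least 2-fold higher and 5.83% at least 2-fold lower in NB, and the median log2 ratio over all genes was -0.30, the shift against which the following ratios stand. With CPM scaled so that this median is 0, the counts turned from 60 higher and 229 lower to 125 higher and 82 lower. The most abundant neutrophil RNAs were higher in NB but within 2-fold, S100a8 at 72167 against 44293 CPM and S100a9 at 102900 against 66838 CPM. Wfdc17 (chr11:83703991-83706268), a small secreted protein of the whey acidic protein family, stood at 6424 CPM in NB (14314 UMIs) and 837 CPM in 2 M (754 UMIs), 7.68-fold (7.13 to 8.27) higher in NB, and was seen in 84.5% of thinned NB and 32.3% of thinned 2 M neutrophils (91.5% and 46.1% unthinned) against 0.719% and 0% of T cells. The median neutrophil had 3370 UMIs in NB and 3184 in 2 M, and 579 of 603 and 235 of 245 entered these shares. Stfa2, a cysteine protease inhibitor of neutrophils, had 77 UMIs in 25 cells against 1 UMI, and Cxcr1, a chemokine receptor, was 6.06-fold (2.49 to 19.2) higher. Fos, an immediate early gene, was at 535 against 173 CPM, 3.09-fold (2.61 to 3.67) higher.

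Of 15 granule genes 2 were higher in NB and 4 lower, with a median log2 ratio of 0.32. The higher members were Anxa1, an inhibitor of neutrophil recruitment, at 355 against 145 CPM, and Wfdc21, at 1666 against 756 CPM. The lower members Camp, Ltf, Ngp and Chil3 are made by immature neutrophils of the bone marrow, and they came from few cells. Camp had 112 and 166 UMIs in 7 cells of each library, and 5 cells held 98.6% of the 2 M UMIs of Ngp. Of 23 genes of activated neutrophils none was 2-fold higher and Il1a was lower (47.6 against 119 CPM, 2.50-fold (1.89 to 3.30)), while the abundant Il1b and Cxcl2 were at 12518 against 8687 CPM and 38890 against 36726 CPM. Haemoglobin RNA in NB neutrophils was at 15080 CPM against 416 CPM in 2 M, and at 835 CPM once 8 cells with 1% or more haemoglobin UMIs were left out, an alternative chosen after seeing the data.

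Alveolar macrophages had 2.25% of 6633 genes at least 2-fold higher and 0.709% at least 2-fold lower in NB, and MHC class II genes were among the higher ones. Of 7 MHC class II genes 6 were 2-fold higher, with a median log2 ratio of 3.03 beside -0.01 for all genes. H2-Aa (chr17:34282744-34287823), the alpha chain of the class II molecule I-A, stood at 1545 CPM in NB (3776 UMIs) and 120.4 CPM in 2 M (254 UMIs), 12.8-fold (11.3 to 14.6) higher in NB. Cd74, the invariant chain that guides class II molecules to the endosome, stood at 4307 CPM in NB (10523 UMIs) and 464 CPM in 2 M (978 UMIs), 9.29-fold (8.70 to 9.93) higher. H2-Ab1 and H2-Eb1 were 8.16-fold and 13.6-fold higher, and H2-DMb1, which loads peptides, 5.67-fold. Most NB macrophages shared the difference. H2-Aa had a UMI in 176 of 182 NB and 47 of 121 2 M macrophages, and after thinning, which left out 1 macrophage of 2 M, in 74.7% and 9.17%. The 5 macrophages richest in H2-Aa held 8.16% of its NB and 52.4% of its 2 M UMIs. In T cells, which do not make it in mice, H2-Aa was at 222 CPM in NB and 168 CPM in 2 M and was seen in 7.24% and 5.99% of thinned cells, with median depths of 13417 and 17919 UMIs in macrophages. The 2 M level of alveolar macrophages (120.4 CPM) was below that background and the NB level (1545 CPM) above it. Summed B cell markers were at 33.6 CPM in NB alveolar macrophages and 69.2 CPM in those of 2 M, and dendritic cell markers at 90.0 and 65.4 CPM with 5 of 7 at 0 UMIs in each library.

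Alveolar macrophage identity genes differed little. Of 26 such genes 2 were higher and 3 lower in NB (median log2 ratio -0.07), Plet1 stood at 8198 against 9361 CPM and the transcription factor Pparg at 40.9 against 47.9 CPM. The higher members were Spp1 (osteopontin) and the cathepsin Ctsk, 2.52-fold (2.36 to 2.69) and 2.23-fold (1.98 to 2.52). The lower members were the scavenger receptor Marco (3.53-fold (2.63 to 4.80)), the sialic acid receptor Siglecf (2.06-fold (1.68 to 2.54)) and the zinc transporter Slc39a2 (2.15-fold (1.70 to 2.73)). None of 25 lipid handling genes passed 2-fold, with a median log2 ratio of 0.00. Of 16 chemokine genes 6 were higher and none lower, from Cxcl1 at 5851 against 2481 CPM, a ligand that draws neutrophils, to Cxcl9, with 77 UMIs in 32 NB cells against 1 in 2 M. Of 15 interferon-stimulated genes 5 were higher, led by Rsad2 (123 against 16.1 CPM) and Ifit1 (113 against 31.3 CPM). The cell cycle inhibitor Cdkn2a had 55 UMIs in 15 NB cells and 0 in 2 M, at least 15.8-fold higher. Stmn1, which is made by dividing cells, was 3.79-fold (2.65 to 5.51) lower in NB. Summed neutrophil markers moved the same way as the higher genes, at 786 CPM in NB and 64.9 CPM in 2 M alveolar macrophages, and their part in these results was not tested.

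Mononuclear phagocytes were represented in 2 M by 44 cells, so single cells weigh heavily. Of 4233 genes 3.85% were at least 2-fold higher and 1.72% at least 2-fold lower in NB. Chemokine genes were higher for 10 of 18 members and lower for none, with a median log2 ratio of 1.17 beside -0.05 for all genes. Cxcl2, a neutrophil attractant, was at 12317 against 5886 CPM and seen in 54.6% and 44.2% of 141 and 43 thinned cells (66.9% and 59.1% unthinned) against 7.82% and 5.48% of T cells. Ccl2, the ligand of monocyte recruitment, stood at 644 CPM in NB (863 UMIs) and 49.5 CPM in 2 M (23 UMIs), with 80.6% of its NB UMIs in 5 cells. Cxcl13 came from 3 cells of NB and Ccl8 from 9, with no UMI in 2 M. Of 15 interferon-stimulated genes 7 were higher and none lower (median 0.84), among them Isg15 (373 against 108 CPM) and Ifit1 (376 against 79.6 CPM).

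The 3 chains of complement C1q, a mark of tissue macrophages, were 2.08-fold, 2.30-fold and 2.41-fold higher in NB for C1qa, C1qb and C1qc, with UMIs in 2 or 3 cells of 2 M. Of 12 dendritic cell genes 5 were higher and 2 lower. The higher ones include Fscn1, which shapes the dendrites of migrating dendritic cells, with 213 UMIs in 18 NB cells and 0 in 2 M, and Ccr7 at 764 against 277 CPM. The lower ones were Xcr1, the receptor of cross-presenting dendritic cells (2.56-fold (1.63 to 4.01)), and the lectin Cd209a (2.76-fold (1.80 to 4.22)). MHC class II genes were past 2-fold for 1 of 9 members (median 0.25), with H2-Aa at 5157 against 4327 CPM. Whether this differs from alveolar macrophages was not tested. Summed neutrophil markers were at 1889 CPM in NB and 47.3 CPM in 2 M in this class, and their part in these results was not tested.

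Fibroblasts labelled NB had less RNA of collagens and elastin. Of 5166 genes 3.46% were at least 2-fold higher and 2.86% at least 2-fold lower in NB. Of 20 collagen chain genes none was 2-fold higher and 15 were 2-fold lower, with a median log2 ratio of -1.22 beside -0.04 for all genes. Col1a1 (chr11:94936224-94953042), a chain of type I collagen, stood at 439.5 CPM in NB (506 UMIs) and 3487 CPM in 2 M (3069 UMIs), 7.93-fold (7.22 to 8.73) lower in NB. Col3a1, the chain of type III collagen, was at 459 against 3219 CPM, 7.02-fold (6.39 to 7.72) lower, and Col1a2 at 1135 against 4767 CPM, 4.20-fold (3.95 to 4.47) lower. The basement membrane chains Col4a1 and Col4a2 and the microfibrillar chains Col6a1, Col6a2 and Col6a3 were between 2.03-fold and 2.46-fold lower. Col13a1, a marker of alveolar fibroblasts, was the 1 member with a ratio above 1, at 99.9 against 72.7 CPM (1.37-fold (1.0 to 1.90)). Col1a1 was seen in 35.5% of thinned NB and 81.5% of thinned 2 M fibroblasts (66.2% and 95.7% unthinned), and in 0.0899% and 0.126% of T cells. The median fibroblast had 7711 UMIs in NB and 8458.5 in 2 M, and 138 and 92 fibroblasts entered these shares.

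Eln (chr5:134702593-134747323), the gene of elastin, stood at 188 CPM in NB (216 UMIs) and 2416 CPM in 2 M (2127 UMIs), 12.9-fold (11.2 to 14.9) lower in NB, the lowest ratio in fibroblasts among the genes ranked. The 5 fibroblasts richest in Eln held 41.2% of its NB and 52.8% of its 2 M UMIs. Of 17 elastic fibre genes Eln and its crosslinking enzyme Loxl1 (2.38-fold (1.99 to 2.87)) were 2-fold lower and Efemp1 (fibulin 3) was 2.21-fold (1.82 to 2.71) higher, while Fbn1 (fibrillin 1) was at 289 against 529 CPM. Of 17 collagen processing genes none was higher and 6 were 2-fold lower, among them Sparc, a collagen-binding secreted protein (1178 against 5480.5 CPM), and Adamts2, which trims procollagen (159 against 557 CPM). All 17 had a ratio below 1. Of 9 small leucine-rich proteoglycan genes Aspn and Podn were 2-fold lower, and Dcn stood at 4668 against 7181 CPM.

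Growth genes were also lower in fibroblasts labelled NB, 4 of 9 by 2-fold and none higher. Peg3 and Meg3, imprinted genes, were at 53.9 against 231 CPM and 453 against 1152 CPM. The growth factor Igf1, which belongs to another list, was 4.04-fold (2.98 to 5.54) lower, at 49.5 against 199.9 CPM. It was the 1 member of 10 IGF axis genes past 2-fold, with a list median of -0.18 and 3 log2 ratios above 0. Subtype genes differed in both directions. Of 12 alveolar fibroblast genes 5 were higher and none lower (median log2 ratio 0.84), among them Inmt, a methyltransferase (3299 against 1597 CPM), the integrin Itga8 (215 against 93.2 CPM) and Scube2 (3.73-fold (2.16 to 6.84)). Of 17 adventitial fibroblast genes 1 was higher and 4 lower (median -0.38), with the higher one Il33, an alarmin (122 against 43.2 CPM), and the lower ones including Pi16 (413 against 1055 CPM) and Serpinf1 (303 against 845 CPM). The make-up of the fibroblasts by subtype was not separated from the level within each subtype.

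Some antigen presentation and interferon genes were higher in fibroblasts labelled NB. Of 14 MHC class I genes 4 were higher and none lower (median 0.92), with B2m, the shared light chain, at 1876 against 859 CPM, 2.18-fold (2.01 to 2.38) higher, H2-Q7 at 123 against 28.4 CPM and the immunoproteasome subunit Psmb8 at 91.2 against 22.7 CPM. Of 11 interferon-stimulated genes 6 were higher and none lower (median 1.15), among them Trim30a (72.1 against 11.4 CPM), Ifi203 (155 against 40.9 CPM) and Bst2 (162 against 60.2 CPM). All 4 MHC class II genes tested were higher (median 2.34), but 5 cells held 67.9% of the Cd74 UMIs in NB and 75.3% in 2 M, and Cd74 was seen in 10.9% and 5.43% of thinned fibroblasts against 10.6% and 7.69% of T cells. These shares are about those of the T cell background and are not read as expression by fibroblasts. The genes with the highest ratios, Slpi, Ccl4, Cd14 and Ctss, likewise had 66.0 to 92.8% of their NB UMIs in 5 cells. Without the upper limits on cells, Cd14 and Ctss were lower in NB, with log2 ratios of -0.15 and -0.42. Plasma cell markers summed to 1979 CPM in NB and 242 CPM in 2 M fibroblasts and neutrophil markers to 374 and 22.7 CPM. B cell markers summed to 143 and 37.5 CPM, T cell markers to 38.2 and 12.5 CPM and dendritic cell markers to 54.7 and 31.8 CPM. Alveolar macrophage markers were at 27.8 and 7.95 CPM. Markers of NK cells (3.47 and 40.9 CPM), the Csf1r class (77.3 and 93.2 CPM) and group 2 innate lymphoid cells (332 and 474 CPM) went the other way. The part of RNA from other cells in these results was not tested.

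**Figure D4:**
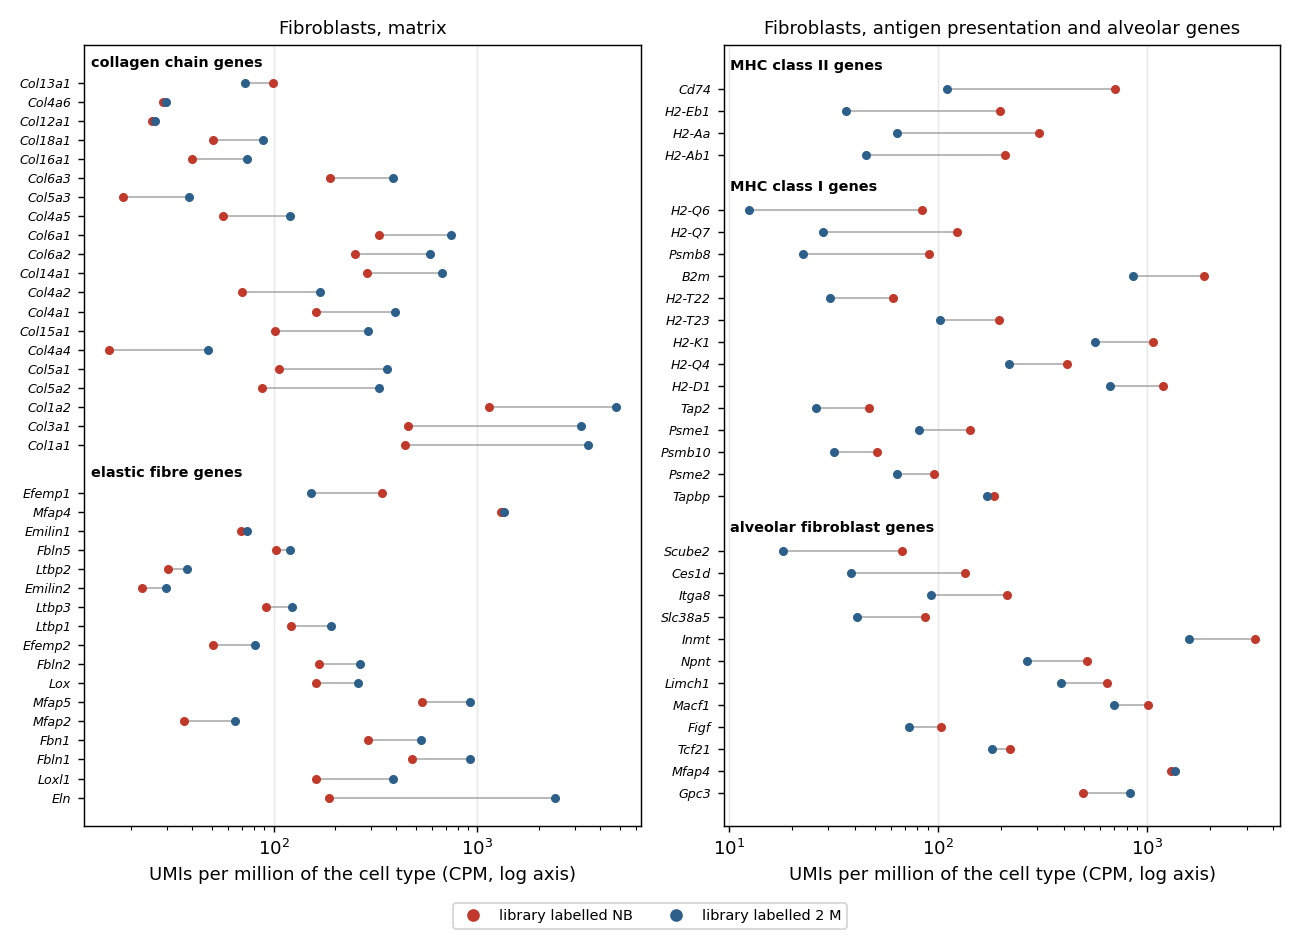
Levels (CPM, log axis) of collagen chain, elastic fibre, MHC class II, MHC class I and alveolar fibroblast genes in fibroblasts of the libraries labelled NB (148 cells) and 2 M (94 cells), 1 point per gene and library, joined by a line. Col1a1, Col3a1 and Eln lay below their 2 M levels in NB, and Inmt, B2m and Cd74 above. A few cells held most of the Cd74 UMIs, and this RNA is not read as expression by fibroblasts.

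Endothelial cells had 4.01% of 2171 genes at least 2-fold higher and 5.11% at least 2-fold lower in NB, from 64 and 38 cells. Capillary genes were 2-fold lower for 7 of 20 members and higher for none, with a median log2 ratio of -0.53 beside 0.01 for all genes. Car4 (chr11:84957786-84966044), the carbonic anhydrase of aerocyte capillaries, stood at 131 CPM in NB (52 UMIs) and 494 CPM in 2 M (98 UMIs), 3.77-fold (2.67 to 5.39) lower in NB. Kdr, the VEGF receptor 2, was at 274 against 1008 CPM, 3.67-fold (2.89 to 4.68) lower, and Emp2 and Ednrb were 4.83-fold and 3.67-fold lower. Kdr was seen in 21.1% of thinned NB and 42.4% of thinned 2 M cells (57 and 33 cells, 51.6% and 68.4% unthinned), against 0.0899% and 0% of T cells. The median endothelial cell had 4644 UMIs in NB and 3753.5 in 2 M. The pan-endothelial Cdh5 and Pecam1 were also lower, at 1059.8 against 1512 CPM and 813 against 1275 CPM. The 7 endothelial markers, which include Kdr, summed to 4516 against 7414 CPM. Whether capillary genes were lower than endothelial markers as a whole was not tested. Of 15 genes of arterial, venous and lymphatic cells 4 were higher and 6 lower. Selp and Vcam1, adhesion molecules of veins, were at 861 against 318 CPM and 1649 against 625 CPM, with 90.6% and 84.1% of the NB UMIs in 5 cells.

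Eln was at 47.8 against 363 CPM in endothelial cells, 7.59-fold (4.53 to 13.3) lower in NB, and Fbln2 and Fbln5 were 8.45-fold and 3.27-fold lower. Fibroblast markers were lower in the same class, 30.2 CPM in NB with 3 of 7 at 0 and 131 CPM in 2 M with 2 of 7 at 0. Alveolar type I markers stood at 103 and 217 CPM with 2 of 5 at 0 in each library, and pericyte and smooth muscle markers at 821 and 323 CPM. Their part in these results was not tested. Klf2, a transcription factor induced by flow, was at 370.0 against 1194 CPM, 3.23-fold (2.62 to 3.99) lower. All 6 MHC class II genes tested were 2-fold higher in NB, with a median of 1.47. Cd74 stood at 2822 CPM in NB (1121 UMIs) and 766 CPM in 2 M (152 UMIs), 3.68-fold (3.11 to 4.39) higher, and was seen in 59.6% of thinned NB and 33.3% of thinned 2 M cells against 10.6% and 7.69% of T cells. In 2 M 77.6% of the Cd74 UMIs lay in 5 cells. B cell markers summed to 88.1 CPM in NB and 126 CPM in 2 M. Ccl2 had 280 UMIs in NB, all in 2 cells, and 0 in 2 M.

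Alveolar type II cells had 5.53% of 3511 genes at least 2-fold higher and 1.62% at least 2-fold lower in NB, from 48 and 45 cells. The 194 higher genes became 21 of 2775 with 10 nearest neighbours, 29 of 2802 with all 4 libraries clustered together and 63 of 3932 without the upper limits on cells. Of 25 surfactant and lamellar body genes 1 was past 2-fold, with a median log2 ratio of -0.35 beside 0.01 for all genes, and Sftpc, the surfactant protein C gene, was at 131990 against 157170 CPM. That 1 gene was Lyz1 (chr10:117287797-117292868), a lysozyme, with 8 UMIs in NB and 1279 in 2 M, of which 98.7% lay in 5 cells. None of 6 MHC class II genes passed 2-fold (median -0.33), and Cd74 was at 3070.5 against 3804 CPM. Cyp2b10, a drug-metabolising enzyme, was 7.28-fold (4.45 to 12.6) higher in NB, at 206 against 28.3 CPM, and the class I genes H2-Q7 and H2-Q6 were 4.6-fold (2.67 to 8.42) and 3.59-fold (2.20 to 6.10) higher. Gdf15, a stress-induced cytokine, was at 46.6 against 282 CPM, 6.05-fold (4.15 to 9.05) lower.

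Airway RNA set the NB class apart. The 6 airway markers summed to 14497 CPM in NB and 521 CPM in 2 M, with none at 0, and the 6 platelet markers to 19.8 and 340 CPM. Airway genes were 2-fold higher for 5 of 8 members (median 1.54), and the club cell gene Scgb1a1 stood at 13340 CPM in NB (9445 UMIs) and 217 CPM in 2 M (138 UMIs), with 94.6% of its NB UMIs in 5 cells. Foxj1, the regulator of ciliated cells, was at 162 against 42.5 CPM. Heat shock genes were higher for 5 of 15 members (median 0.51), and 5 cells held 68.9% of the NB UMIs of Hsph1 and 74.0% of those of Dnajb1. The keratins Krt8 and Krt18, also made by airway cells, were 2.56-fold and 2.27-fold higher, with 65.3% and 55.6% in 5 cells. With 10 nearest neighbours the median of the airway genes was 0.05, that of the heat shock genes -0.23 and that of the surfactant genes -0.06.

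Set side by side, the median log2 ratio of MHC class II genes was 3.03 in alveolar macrophages, 2.34 in fibroblasts, where the Cd74 shares were about those of T cells, 1.47 in endothelial cells and 0.25 in mononuclear phagocytes. It was 0.32 in T cells, 0.24 in B cells, 0.11 in neutrophils, -0.17 in NK cells and -0.33 in alveolar type II cells. The median of the interferon-stimulated genes was above 0 in all 9 types, from 0.03 in alveolar type II cells, where 3 genes were tested, to 1.15 in fibroblasts. MHC class I genes had medians of 0.26 to 0.92 in every type but neutrophils, where the median was -0.23 beside the shift of -0.30 for all genes. Differences between types were not tested.

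Most heat shock and immediate early genes stayed within 2-fold in every type. Of 16 heat shock genes in T cells and in B cells 3 were 2-fold higher in each, with Hspa1a at 41.4 against 5.80 CPM in T cells and 36.7 against 7.36 CPM in B cells. Hspa1a was lower in NK cells (6.97 against 20.6 CPM) and in mononuclear phagocytes (228 against 776 CPM), where 99.2% of the 2 M UMIs lay in 5 cells. Immediate early genes were 2-fold higher for 3 of 25 in T cells, 3 of 24 in neutrophils and 3 of 24 in mononuclear phagocytes, with Ier3 among them in each, and 2-fold lower for 5 of 23 in endothelial cells. Of 17 cell cycle genes in T cells 2 were higher and none lower (median 0.31). In B cells 2 of 15 were higher and none lower, but 9 log2 ratios were below 0 and the median was -0.11. In NK cells 1 of 12 was higher and none lower (median 0.31). Mki67 was among the higher ones in both, at 4.86 against 0.774 CPM in B cells and 37.6 against 11.4 CPM in NK cells. Neutrophil markers outside neutrophils were higher in NB in every type, S100a8 being at 54.5 CPM in NB and 9.92 CPM in 2 M T cells and at 640 and 10.8 CPM in mononuclear phagocytes, and the neutrophil share was 2.14 times that of 2 M. Haemoglobin RNA was higher in NB in 8 of the 9 types and lower in NK cells (744 against 1102 CPM). It was at 5887 against 157 CPM in mononuclear phagocytes, 21928 against 368 CPM in endothelial cells and 7942 against 135 CPM in alveolar type II cells. Without cells of 1% or more haemoglobin UMIs, 1, 2 and 2 cells of NB, it was at 386, 526 and 291 CPM. In NK cells, leaving out 3 such cells of 2 M turned the order, to 744 CPM in NB against 335 CPM in 2 M.

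**Figure D5:**
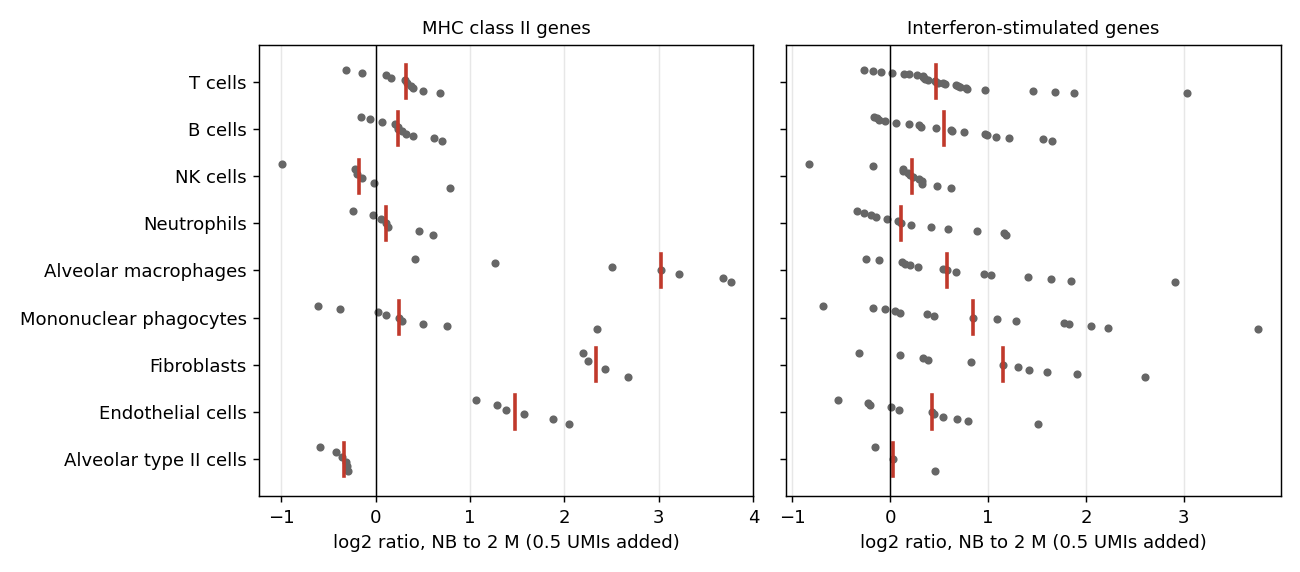
Log2 ratio of NB to 2 M for MHC class II genes and interferon-stimulated genes in each of the 9 cell types, 1 point per gene with at least 50 UMIs, with a bar at the median of the list. Points of MHC class II genes lie well above 0 in fibroblasts and endothelial cells and, but for 1 at 0.42, in alveolar macrophages. The medians of B cells and mononuclear phagocytes are 0.24 and 0.25. In fibroblasts 5 cells held 67.9% of the Cd74 UMIs of NB, and this RNA is not read as expression by fibroblasts.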

How the data were processed

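Whole lung cells of 4 labelled ages were profiled with 10x Genomics 3' chemistry, version 2 by the labels. The deposited files hold raw UMI counts per gene and cell in 1 matrix per library, which the authors made by aligning to mm10 and counting with Cell Ranger (3.0.2 in the submitters' processing notes, 3.1.0 in the matrix header), with Seurat 2.0 also named in those notes. They list 27998 genes, and 121 rows of duplicated symbols were left out. After the limits on genes, UMIs and mitochondrial share, 34053159 UMIs of NB and 28853314 of 2 M remained, with 3.38% and 3.64% mitochondrial UMIs in the median cell. NB and 2 M cells were clustered together with scanpy 1.11.5 (2000 variable genes, 30 principal components, 20 nearest neighbours, leidenalg 0.10.2 and igraph 0.11.9 at resolution 1), which gave 21 clusters, and each was named from 20 marker lists with at least 3 markers detected. Scrublet calls, 155 cells (2.43%) of NB and 116 (2.10%) of 2 M, were kept, and leaving them out was an alternative. UMIs were summed per type and library. Intervals were computed with scipy 1.17.1, and numpy 2.4.6, pandas 2.3.3, scikit-learn 1.9.0, matplotlib 3.10.9 and Python 3.11.15 were used. The procedure was tested on simulated data. Libraries were grouped by the labels, with 1 per age, so no test between ages was run.

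Members of 50 gene lists with 782 genes were named, and per type the 8 highest and 8 lowest ratios (5 and 5 where a library had under 150 cells) among genes with at least 50 UMIs, at least 15 cells with a UMI in the higher library and an interval excluding 1. Predicted gene models, haemoglobin, mitochondrial and receptor variable genes and markers of other types were left out of this ranking. Other genes given as background, such as S100a8 and Jchain outside their types, were chosen after their values were seen. The cell types and lists were chosen with earlier results of these data known. Gene positions are those of GENCODE vM21 on GRCm38, the same build as mm10. Genes of the immunoglobulin and T cell receptor constant regions were not analysed here, and a few members of the lists are counted but not reported by name. Alternatives changed the cell limits, doublets, clustering, libraries clustered, typing rule, scaling, gene minimum and UMIs added. The 10 M and 18 M libraries entered the check of labels and 1 alternative.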

Additional observations from a re-analysis of the deposited data

Results flagged for a closer look

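A few genes were at least 3-fold higher in the library labelled NB in one cell type and at least 3-fold lower in another, and whether the types differ was not tested. Fam184a had a log2 ratio of 3.98 in T cells and -1.94 in NK cells. Ret, a receptor tyrosine kinase, had 2.89 in T cells and -4.02 in NK cells. Hopx, a homeodomain cofactor, had 1.67 in T cells and -1.98 in endothelial cells. Igf1, a growth factor, had 1.64 in alveolar macrophages and -2.01 in fibroblasts. Ndnf had 2.09 in T cells and -2.14 in alveolar type II cells.

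Among cells outside the 9 types, which entered no comparison of gene levels, 3 groups took larger shares of NB than of 2 M. Plasma cells were 1.0% of NB cells (64 cells) and 0 of 5537 in 2 M, which allows a share of up to 0.0666% (exact Clopper-Pearson, counting error only). Platelets were 0.706% of NB (45 cells) against 0.126% of 2 M (7 cells), a ratio of 5.58 (2.50 to 14.7). A pair of clusters that scored highest for pericyte and smooth muscle markers were 1.18% of NB (75 cells) against 0.668% of 2 M (37 cells). The one led by Acta2, Tagln and Myh11 held 40 NB and 10 2 M cells. The other, led by Enpp2, Hhip and Thbs1, held 35 and 27 cells, and the fibroblast list scored next. Its lead marker fell short of the level at which a marker was counted as detected, which does not mean that it was absent. This cluster is therefore left unnamed.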

How the results depend on the processing

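No paired analysis was possible because there was 1 library a side and the labels give no replicate numbers. The 114 ranked ratios, the highest and lowest of each type, gave 1385 values under the alternatives, and 1383 kept their direction. The exceptions are the log2 ratios of Cd14 (-0.15) and Ctss (-0.42) in fibroblasts without the upper limits on cells. These ratios were picked as extreme in the same data, so a kept direction was nearly fixed in advance and is only a description. Under typing by exactly 1 lead marker 54 of them could be compared. List members outside the ranking were followed only through the medians of their lists. The cause of the following changes was not tested, except that the gene minimum changes how many genes are counted. Small classes, low counts and a few cells that hold most UMIs of a gene limit the precision.

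With at least 1 UMI per gene the counts of genes 2-fold higher and lower in NB were 2629 and 1650 in T cells, 2036 and 1756 in B cells, 1295 and 1102 in NK cells, 1027 and 3449 in neutrophils, 1801 and 1504 in alveolar macrophages, 1422 and 1728 in mononuclear phagocytes, 2647 and 1726 in fibroblasts, 1504 and 3287 in endothelial cells and 2541 and 2241 in alveolar type II cells. The MHC class II medians were then 2.50 in alveolar macrophages and 1.87 in fibroblasts. With at least 20 UMIs they were 315 lower in T cells, 401 and 255 in B cells, 161 and 338 in NK cells, 125 and 681 in neutrophils, 311 and 155 in alveolar macrophages (MHC class II median 2.50), 421 and 265 in mononuclear phagocytes, 481 and 312 in fibroblasts, 240 and 396 in endothelial cells and 527 and 233 in alveolar type II cells. With at least 200 UMIs they were 250 and 55, 57 and 51, 7 and 15, 27 and 23, 45 and 12, 49 and 7, 41 and 32, 15 and 15, and 40 and 7 in the same order of types. The medians were then -0.50 for precursor and 0.70 for age-associated genes in B cells, 0.54 for granule genes in neutrophils and 0.58 for chemokines in mononuclear phagocytes.

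Cells typed by exactly 1 lead marker gave share ratios of 1.36 for T cells, 0.416 for NK cells and 0.895 for alveolar macrophages. Counts were then 15 higher and 56 lower in NK cells, 125 lower in alveolar macrophages, 66 higher in mononuclear phagocytes, 52 lower in endothelial cells and 20 higher in alveolar type II cells. Medians were -0.82 for naive T cell genes, 2.79, 3.36 and 2.69 for MHC class II genes in alveolar macrophages, fibroblasts and endothelial cells, 0.38 for chemokines in mononuclear phagocytes, 0.0359 for surfactant genes, 0.17 for growth and -0.70 for haemoglobin genes in alveolar macrophages and -2.33 for haemoglobin genes in endothelial cells.

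The mean over cells gave 91 genes higher in neutrophils, 155 lower in mononuclear phagocytes, 213 higher and 198 lower in endothelial cells and 103 lower in alveolar type II cells, with medians of -0.92 for naive T cell genes, -0.66 for precursor and 0.65 for age-associated B cell genes and 1.79 for MHC class II genes in fibroblasts. With all 4 libraries clustered together the B cell share ratio was 0.705, 90 genes were higher in B cells and 29 in alveolar type II cells, and medians were -0.56 for precursor and 0.26 for age-associated B cell genes and -0.0775 for surfactant genes. Without upper limits on cells 76 genes were lower in alveolar macrophages (MHC class II median 2.81) and 63 higher in alveolar type II cells (surfactant median -0.11). With 10 nearest neighbours 21 genes were higher in alveolar type II cells (surfactant median -0.0636). Scaling to a median ratio of 1 gave 125 higher and 82 lower in neutrophils (granule median 0.62). Adding 2 UMIs left 77 lower in NK cells, the mitochondrial limit of 5% gave a surfactant median of -0.60, leaving out Scrublet calls an MHC class II median of 3.40 in alveolar macrophages, and CPM without haemoglobin, mitochondrial, ribosomal protein and immunoglobulin genes a naive T cell median of -0.78.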
